A study of Caenorhabditis elegans with 2 samples.

Results

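MicroRNA (miRNA) genes make up a small class of the Caenorhabditis elegans annotation, and their starts were examined here for binding of the tagged protein B0019.2. The members were all genes of biotype miRNA on the nuclear chromosomes of the Ensembl release 115 annotation of WBcel235, 261 of 46890 genes. Each was searched in a window of 1000 bp upstream to 200 bp downstream of its annotated start, along its own strand. The study was a chromatin immunoprecipitation (ChIP-seq) of strain RW12288, which carries st12288[B0019.2::TY1::EGFP::3xFLAG] on chromosome I, an insertion made by CRISPR at B0019.2 itself. Whole young adults were collected at 63.5 h after growth from starved L1 larvae, and chromatin sonicated to 200 to 800 bp was precipitated with an antibody against GFP. The data used were 1 group of 2 libraries, labelled as biological replicates of the same strain, with no library of another strain, antibody or stage, so every value below is a description and no test between conditions was possible. Whole animals mix all tissues, so a peak does not say in which cells the protein sat.

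A miRNA is cut from a hairpin within a longer primary transcript, first by the nuclear enzyme DRSH-1 and then by DCR-1, and the mature strand guides an Argonaute protein to messenger RNAs. Bases 2 to 8 of the mature strand, the seed, carry most of the target choice, so miRNAs with the same seed are grouped into families. Several worm miRNAs are transcribed as clusters from 1 primary transcript, and others lie inside protein-coding genes. lin-4 and let-7 time larval development, lsy-6 acts in a taste neuron, and the mir-35 and mir-51 families are required in the embryo. The annotated start of most miRNA genes is the hairpin start, which lies downstream of the true start of transcription.

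The authors deposited a ranked list of 55591 candidate peaks made from both libraries and a thresholded list of 900 peaks named conservative, called the main list here. They also deposited another thresholded list of both libraries with 866 peaks, and a list for each library, with 524 peaks for replicate 1 and 496 for replicate 2. The signal of a peak is the authors' own value with no stated scale, so it is compared only within a list. IDR is the irreproducible discovery rate, and thresholded peaks have a −log10 global IDR of at least 2. The median signal was 95.7 in the main list and 27.9 in the ranked list. The lists hold no counts, so the depth of the libraries is unknown.

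Summits of the main list fell in the windows of 11 miRNA genes, or 7.33% of those with any ranked candidate in the window, against 6.47% of all genes with one. These 11 genes shared 5 distinct summits, because 1 summit lay upstream of the 7 genes of the mir-35 to mir-41 cluster. The other 4 genes were mir-4932, mir-354, mir-51 and mir-4812. The mature strands of the family behind the shared summit are shown first, since all carry the same seed (capitals, bases 2 to 8 from the 5′ end), and mir-42 carries it too although it lies outside the cluster. All are on chromosome II and were taken from RefSeq on WBcel235.
mir-35 3p: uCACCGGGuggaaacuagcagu
mir-36 3p: uCACCGGGugaaaauucgcaug
mir-37 3p: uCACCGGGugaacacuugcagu
mir-38 3p: uCACCGGGagaaaaacuggagu
mir-39 3p: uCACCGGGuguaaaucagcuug
mir-40 3p: uCACCGGGuguacaucagcuaa
mir-41 3p: uCACCGGGugaaaaaucaccua
mir-42 3p: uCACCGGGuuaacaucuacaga

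The 3p strands of mir-36 to mir-41 shared between 15 and 19 of 22 bases with mir-35, counted position by position from base 1, and mir-42 shared 14. Seed CACCGGG was found in 8 miRNA genes in all. All 8 had a ranked candidate in the window, and 7 had the main-list summit. These 7 genes share 1 peak and are not independent observations.

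The next set gives the mature strands of further miRNA loci at which a thresholded list of both libraries had a summit, with the seed in capitals. mir-51 is on chromosome IV, mir-4812 on chromosome X, mir-5549 on chromosome III and mir-45 on chromosome II.
mir-51 5p: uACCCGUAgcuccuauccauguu
mir-4812 5p: aAGAGCGCuuguagugaguugu
mir-4812 3p: cAACCACUgcaauuucucuau
mir-5549 3p: uCAUGUUGguuuuuuguuggu
mir-45 3p: uGACUAGAgacacauucagcu

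The mir-51 seed, ACCCGUA, was found in mir-51 to mir-56, on the 5p strand of mir-51 to mir-53 and the 3p strand of mir-54 to mir-56. All 6 had a ranked candidate, and mir-51 alone among them had a main-list summit. The mir-4812 3p seed, AACCACU, was also found in mir-1829.2 and mir-1829.3, which had candidates but no main-list summit. 

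The 3 peaks with no protein-coding start nearer than the miRNA start are printed as the plus strand of RefSeq WBcel235, each 270 bp long, with the 21 bases centred on the summit in capitals. They lie at chrII:11537218-11537487 upstream of mir-35, at chrIV:11026123-11026392 upstream of mir-51 and at chrX:15242765-15243034 over and upstream of mir-4812.
mir-35 peak: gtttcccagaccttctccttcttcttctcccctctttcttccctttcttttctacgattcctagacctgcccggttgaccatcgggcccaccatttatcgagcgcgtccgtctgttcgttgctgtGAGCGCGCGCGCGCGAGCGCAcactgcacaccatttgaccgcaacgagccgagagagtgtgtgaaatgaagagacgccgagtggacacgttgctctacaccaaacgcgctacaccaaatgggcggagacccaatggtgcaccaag
mir-51 peak: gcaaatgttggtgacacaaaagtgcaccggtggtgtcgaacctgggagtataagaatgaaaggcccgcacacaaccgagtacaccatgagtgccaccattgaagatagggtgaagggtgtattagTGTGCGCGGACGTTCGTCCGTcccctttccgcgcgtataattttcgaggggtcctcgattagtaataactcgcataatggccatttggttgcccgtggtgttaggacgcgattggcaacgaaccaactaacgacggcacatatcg
mir-4812 peak: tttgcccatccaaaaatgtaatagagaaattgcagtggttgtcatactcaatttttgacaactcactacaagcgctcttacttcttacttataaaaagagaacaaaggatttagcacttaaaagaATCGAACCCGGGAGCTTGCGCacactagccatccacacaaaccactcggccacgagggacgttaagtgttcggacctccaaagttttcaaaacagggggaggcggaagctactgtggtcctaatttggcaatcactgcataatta

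The summit upstream of mir-35 lay in a run of mostly alternating G and C, and the 101 bases centred on it were 63.4% G or C. The same measure was 52.5% at the mir-51 summit and 47.5% at the mir-4812 summit, against a median of 47.5% over the main list and 40.6% over the ranked list. After the mir-4812 letters were seen, the motif GTTCGANNC was searched on both strands of the 271 bases centred on each summit, because it resembles box B, the inner promoter element of transfer RNA (tRNA) genes. It was found on the minus strand at 2 of the 5 main-list summits in miRNA windows, centred 8 bp from the mir-4812 summit and 99 bp from the mir-51 summit. The mir-4812 match prompted the search and was fixed in advance, so the count of 2 is not independent evidence of an excess. It was found at 3 of the other 194 ranked candidates in miRNA windows, or 1.55%. Over the main list it was found at 103 of 900 summits, or 11.4%, made up of 68 of 93 summits in tRNA windows (73.1%) and 35 of 807 elsewhere (4.34%). Over the ranked list it was found at 2.95%. No tRNA gene window held the mir-4812 or the mir-51 summit, and no annotated tRNA gene lay under either peak. A match is a description of the letters and was not tested as a binding site.

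Ranked candidates, strong or weak, fell in the windows of 150 of the 261 miRNA genes, or 57.5%, against 42.5% of all genes. The all-gene share is lowered by 15363 piwi-interacting RNA (piRNA) genes, of which 3213 had a candidate. Among protein-coding genes it was 51.9%. Among the 150, main-list summits were in the windows of 11, or 7.33% (exact 95% binomial interval 3.72% to 12.7%, counting error only), against 6.47% of all genes with a candidate (1289 of 19915). Over all annotated genes the shares were 4.21% of miRNA genes, 2.75% of genes (piRNA genes included) and 3.84% of protein-coding genes. The miRNA share by gene lay close to the background, and since 7 of the 11 genes share a peak the interval is too narrow. Counted by locus, with same-strand miRNA genes whose starts lie within 1000 bp of each other taken as 1, there were 227 loci, of which 129 had a candidate and 5 a main-list summit, or 3.88% of those with a candidate. All genes were not counted by locus, so this share has no background of its own and is not set against 6.47%. The 5 summits were 0.556% of the main list.

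Among other non-coding classes, tRNA, small nucleolar RNA and small nuclear RNA genes had larger shares by the same count, and piRNA genes a smaller one. Of genes with a candidate, main-list summits were in the windows of 22.0% of tRNA genes (18.5% to 25.8%), 26.5% of small nucleolar RNA genes (21.3% to 32.3%) and 26.5% of the 83 small nuclear RNA genes (17.4% to 37.3%). Protein-coding genes had 7.39% (766 of 10361) and piRNA genes, which encode the germline piwi-interacting RNAs, 2.18% (1.70% to 2.74%). Genes of these classes can share a summit too. The tRNA count was 115 genes with 93 main-list summits in tRNA windows, so its interval is too narrow. Shared summits were not counted for the other classes.

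The signal of the strongest candidate in each of the 150 windows ran from 4.20 to 238.6 with a median of 35.5, against a median of 32.4 for all genes with a candidate. The quartiles of the miRNA values were 27.4 and 47.1. The medians of tRNA genes and small nucleolar RNA genes were higher, at 49.6 and 45.1, and that of piRNA genes lower, at 28.7. Strongest candidates lay a median of 314.5 bp upstream of the miRNA start, against 328 bp upstream for all genes. Within 500 bp upstream lay 74 of the 150, against 8511 of 19915 for all genes and 4731 of 10361 for protein-coding genes.

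**Figure D1:**
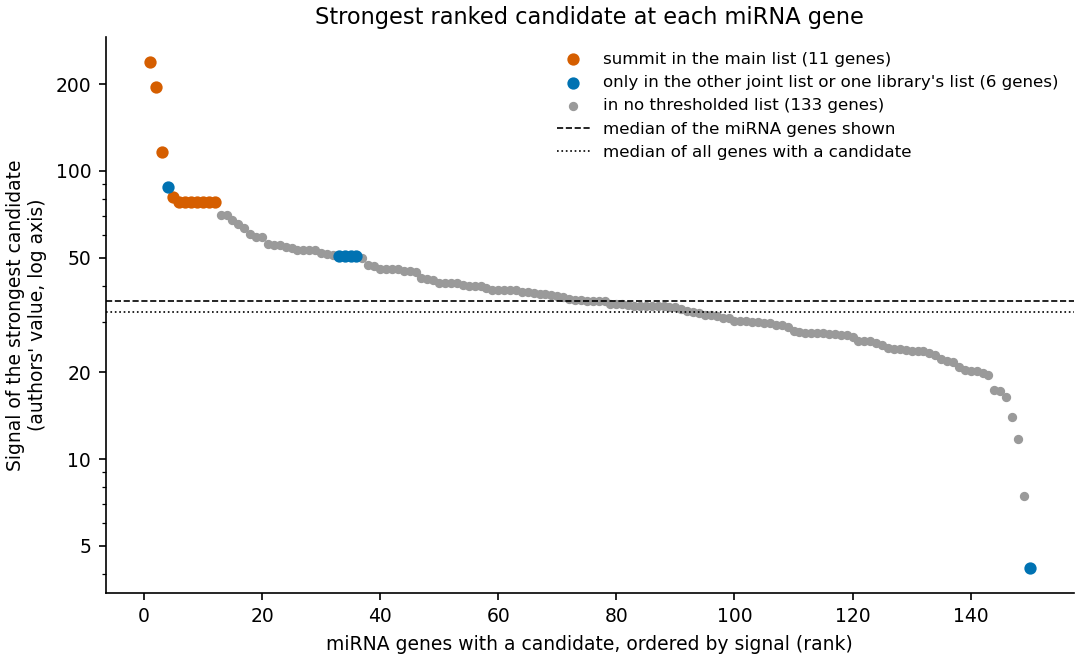
The signal of the strongest ranked candidate in the window of each of 150 miRNA genes (vertical log axis, the authors' value), ordered from highest to lowest, with the 11 genes of the main list, 6 genes found in another deposited list only, and the medians of miRNA genes (35.5) and of all genes (32.4) marked. Main-list genes sit at the top between 78.0 and 238.6, the 7 equal values are the shared mir-35 to mir-41 peak, and the lowest point is mir-45 at 4.20.

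The strongest of the 5 summits was at mir-4932, with a signal of 238.6, rank 52 of 900. mir-4932 (WBGene00219227) is annotated at chrI:9512307-9512416 on the plus strand, outside protein-coding genes, and its summit lay 96 bp downstream of the start, inside the hairpin. The start of klp-16, which encodes a minus-end-directed kinesin of the meiotic and mitotic spindle, lay nearer, 49 bp from the summit. The summit was also 167 bp upstream of smn-1, the worm counterpart of the survival of motor neuron gene. The peak was in the thresholded list of either library, with signals of 123.5 in replicate 1 and 116.9 in replicate 2. In replicate 1 the summit lay 121 bp downstream of the mir-4932 start, past the end of the hairpin, and 24 bp from the klp-16 start.

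The next summit, with a signal of 194.7 and rank 87 of 900, lay 826 bp upstream of mir-354 (WBGene00014612) at chrI:14468382-14468491 on the minus strand. mir-354 lies inside rps-20, which encodes a ribosomal protein of the small subunit, on the same strand. The summit was 214 bp upstream of rps-20 and 183 bp upstream of ekl-4, a DMAP1 homolog, which was the nearest start. It was in both libraries' lists, with signals of 88.2 in replicate 1 and 107.7 in replicate 2. At these 2 loci the protein-coding start was nearer to the summit than the miRNA start, and the data cannot assign the peak to either.

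The mir-51 summit had a signal of 116.1, rank 293 of 900, and lay 146 bp upstream of mir-51 (WBGene00003279, chrIV:11026013-11026112, minus strand, outside protein-coding genes). The nearest protein-coding start, that of hrg-5, was 3170 bp away. The nearest start of any class was that of F36H1.17, a non-coding RNA gene (ncRNA), 39 bp from the summit. The peak was in both libraries' lists, with a signal of 72.8 and the summit 157 bp upstream of mir-51 in replicate 1, and a signal of 56.7 and the summit 88 bp upstream in replicate 2. Of the 3 summits with no protein-coding start nearer, this was the only one found in both libraries' thresholded lists.

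The mir-4812 summit had a signal of 81.1, rank 623 of 900, and lay 51 bp upstream of the mir-4812 start (WBGene00189970, chrX:15242774-15242849, minus strand). No annotated gene start of any class was nearer, whereas each of the other 4 summits had a nearer start of another gene class. mir-4812 lies inside piki-1, which encodes a phosphoinositide 3-kinase, on the same strand, and the piki-1 start was 3499 bp away. In replicate 1 the peak was thresholded with a signal of 54.5. In replicate 2 the candidate had a signal of 31.8 and a −log10 global IDR of 0.377, so it did not reach that library's list.

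The shared summit of the mir-35 to mir-41 cluster was the weakest of the 5, with a signal of 78.0, rank 662 of 900, and a −log10 global IDR of 2.41. It lay 255 bp upstream of mir-35 (WBGene00003263) and 955 bp upstream of mir-41, the first and last of 7 hairpins within 797 bp (chrII:11537608-11538404, plus strand). The cluster lies within the protein-coding gene Y62F5A.9 on the opposite strand, whose start was 1488 bp from the summit. The nearest start of any class was that of the ncRNA gene Y62F5A.16, 174 bp away. In replicate 1 the peak had a signal of 34.7 and was rank 519 of the 524 thresholded peaks. In replicate 2 no candidate summit lay within 200 bp of it, and the nearest candidates of that library, at 94 bp and 605 bp downstream of the mir-35 start, had signals of 14.0 and 30.8 with −log10 global IDR values of 0.051 and 0.070. Of the libraries' own lists, that of replicate 1 alone held this peak, and with it 7 of the 11 genes counted above. mir-42, 351503 bp from mir-41 (starts), had its own candidate 76 bp upstream with a signal of 40.9, in no thresholded list.

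**Figure D2:**
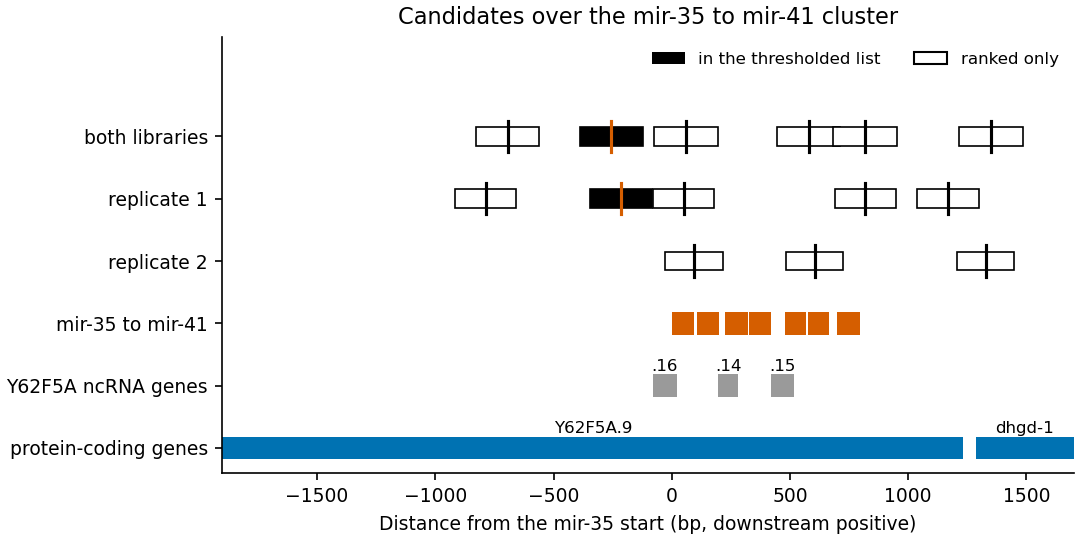
Candidate peaks (boxes, with a line at each summit) in the ranked lists of both libraries together, replicate 1 and replicate 2, above the 7 hairpins, 3 ncRNA genes and 2 protein-coding genes, by distance in bp from the mir-35 start. The filled box at 255 bp upstream of mir-35 has a counterpart 214 bp upstream in replicate 1, and replicate 2 has no candidate there.

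In all, 9 of the 11 genes and 3 of the 5 summits had no protein-coding start nearer than the miRNA start. A short ncRNA gene start was the nearest of all classes at 2 of the 5 summits, a protein-coding start at 2 and a miRNA start at 1. For comparison, a protein-coding start was nearer than the gene's own start for 18.2% of the 11 miRNA genes. The share was 23.8% of the 1289 genes of all classes with a main-list summit. Among the 523 non-coding genes and pseudogenes of these it was 11.3%. Since 7 of the 11 genes share 1 summit, they are not independent, and by distinct summit the count was 2 of 5. All genes were not counted by summit, so no difference is read from these shares. Over strongest candidates of any strength, a protein-coding start was nearer for 14.0% of the 150 miRNA genes, against 15.2% of all genes.

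**Figure D3:**
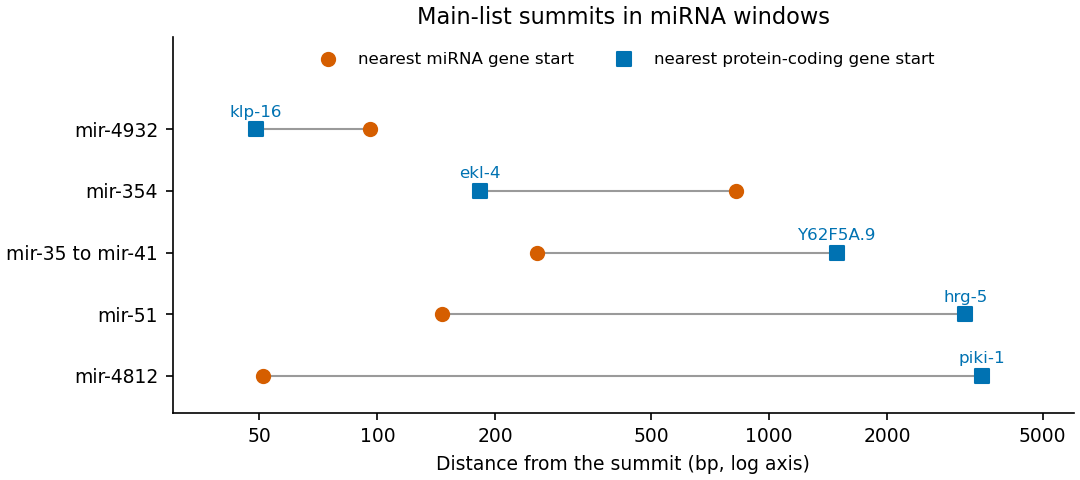
The distance (bp, log axis) from each of the 5 main-list summits to the nearest miRNA start (circles) and to the nearest protein-coding start (squares, named). The square lies nearer for mir-4932 (49 bp) and mir-354 (183 bp), and at 1488 to 3499 bp for the other 3.

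The other deposited lists added mir-5549, mir-45 and 4 genes of a cluster inside gcn-1, the cluster in the list of replicate 2 only. The second list of both libraries had summits in the windows of 13 miRNA genes, or 4.98%, against 2.64% of all genes, at 7 distinct summits, and the additions were mir-5549 and mir-45. The list of replicate 1 had 11 miRNA genes (4.21%, against 1.64% of all genes) at 5 summits, and that of replicate 2 had 8 (3.07%, against 1.53%) at 5 summits. The 11 include the 7 genes of the shared mir-35 to mir-41 summit, and the 8 include 4 genes that share another summit. Counted by locus, either library's list had a summit at 5 of the 227 loci. The all-gene shares here include the piRNA genes, so no excess is read from these shares. mir-4932, mir-354 and mir-51 were the miRNA genes found in both libraries' lists. All 5 main-list summits had a counterpart in the list of replicate 1, and 3 in that of replicate 2.

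mir-5549 (chrIII:6971976-6972085, minus strand) had a candidate 30 bp upstream of its start with a signal of 87.6, above those of mir-4812 and mir-35 in the same ranked list. Its −log10 global IDR was 1.997, just under the threshold, while the smallest value among the 5 main-list summits was 2.41. In the second list of both libraries it was 2.81. The peak was in the list of replicate 2, with a signal of 56.9, but not of replicate 1, where the candidate had a signal of 29.9. The start of rfc-4, a replication factor C subunit, lay 138 bp from the summit, farther than that of mir-5549. mir-45 entered the second list with a signal of 4.20, rank 858 of 866, and neither library's ranked list had a candidate within 200 bp of its summit.

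The 4 genes of a cluster inside gcn-1 on the same strand, mir-229, mir-64 and mir-66 among them, shared a summit in the list of replicate 2, 197 bp upstream of mir-229 and 853 bp upstream of mir-66. Its signal was 31.8, rank 492 of the 496 peaks of that list. The candidate of replicate 1 had a signal of 23.8 and a −log10 global IDR of 0.032, and that of both libraries together 50.8 and 0.895. This cluster and the mir-35 to mir-41 cluster were each thresholded in 1 library, near the foot of its list.

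**Figure D4:**
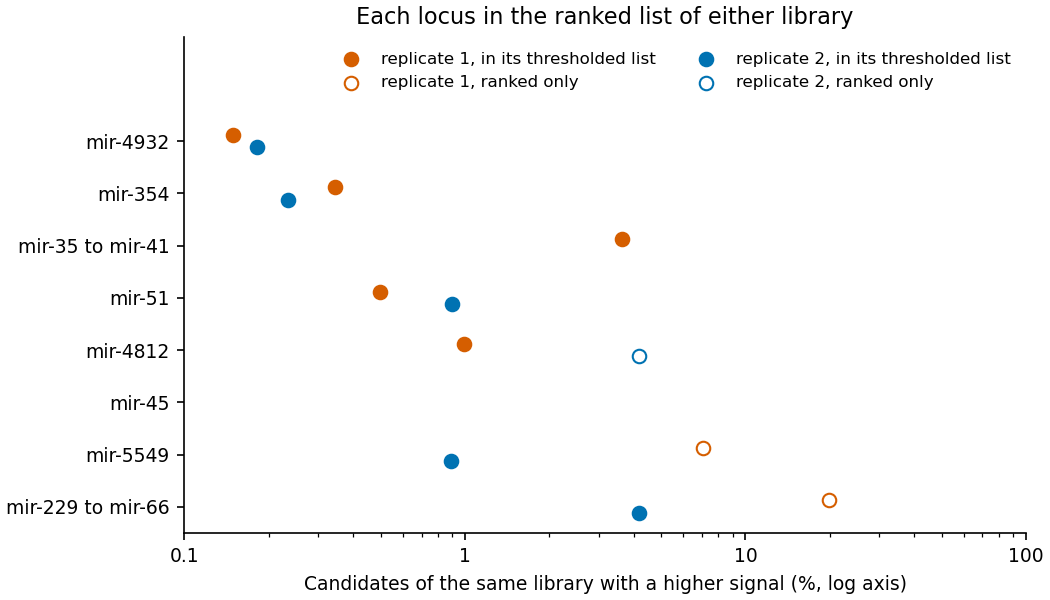
For each miRNA locus with a summit in any thresholded list, the percentage of that library's ranked candidates with a higher signal (log axis), for replicate 1 and replicate 2, with filled points where the library's own thresholded list held the peak. mir-4932, mir-354 and mir-51 lie in the top 1% in both libraries, mir-35 to mir-41 has no replicate 2 point, and mir-45 has none.

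Distinct candidates with a summit in any miRNA window numbered 199, of which 35 had a protein-coding start nearer than every miRNA start and 129 had a miRNA start nearest of all classes. Outside the main list none reached a −log10 global IDR of 2, and 5 reached 1. The strongest outside all thresholded lists was a summit with a signal of 70.5 shared by mir-61 (133 bp upstream) and mir-250 (274 bp upstream), with a protein-coding start, F55A11.4, 178 bp away. mir-249 followed with 67.5 at 921 bp upstream, mir-74 with 65.5 at 21 bp downstream, mir-87 with 63.5 at 361 bp upstream and mir-4936 with 60.2 at 292 bp upstream. At mir-249, mir-74 and mir-87 the miRNA start itself was the nearest start of any class, and at mir-4936 nduf-9, a subunit of respiratory complex I, was nearer by 8 bp.

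Of the miRNAs with known roles named above, let-7, lin-4 and lsy-6 were not among the main-list genes. Of the families named there, 7 of the 8 mir-35 family genes and 1 of the 6 mir-51 family genes were. The 7 genes share 1 peak, which was in the list of replicate 1, at rank 519 of 524, but not of replicate 2. Main-list summits were in the windows of 4.21% of all miRNA genes. An absence at single genes lies near that share, so no pattern by role is read. let-7 (WBGene00002285) is annotated as a gene of 1732 bp with the hairpin starting 1050 bp into it, and the window of the gene start held no candidate. Set at the hairpin start, the window held 1 with a signal of 33.0 and a −log10 global IDR of 0.103, 340 bp upstream of the hairpin. lsy-6 had no candidate. lin-4 (chrII:5902254-5902347) had 1, with a signal of 38.1 and a −log10 global IDR of 0.636, 215 bp upstream. Of the 7 genes listed for the let-7 family, 5 carry the let-7 5p seed, GAGGUAG. A candidate was in the windows of 3 of the 7, namely mir-795 with 34.4, mir-48 with 27.1 and mir-84 with 23.8. For comparison, 57.5% of all miRNA genes and 42.5% of all genes had a candidate. The families are too small for a difference from these shares to be read. Of the 8 genes listed for the mir-58 family, an abundant family of the worm, 7 had a candidate, the strongest being mir-80 with 59.1, mir-81 with 45.8 and the neighbours mir-2209.1 and mir-2209.3 with 45.5 at a shared summit. The mir-51 family ran from 116.1 at mir-51 to 54.1 at mir-52, 53.1 at the shared summit of mir-54, mir-55 and mir-56, and 26.6 at mir-53. The muscle miRNA mir-1 and its relative mir-796 had none.

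By position, the 155 miRNA genes outside protein-coding genes had 74 with a candidate and 2 with a main-list summit, the 74 in a same-strand host had 50 and 2, and the 32 inside a gene of the opposite strand had 26 and 7, the last being the mir-35 to mir-41 cluster. By chromosome, main-list miRNA genes numbered 2 of 33 on I, against 6.40% of all genes there, and 7 of 49 on II, against 4.38%. They numbered 0 of 27 on III, against 6.74% of all genes, and 1 of 50 on IV, against 1.40%. They numbered 0 of 28 on V, against 2.10%, and 1 of 74 on X, against 1.51%. Apart from chromosome II, where 1 peak gave all 7 genes, each count was 2 genes or fewer, so no difference between chromosomes is read from them. On chromosomes III and V the strongest candidates had signals of 87.6 (mir-5549) and 70.5 (mir-61 and mir-250).

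Protein genes that make, carry or use miRNAs were read in the same way. Of 30 such genes listed, 27 had a candidate, against 51.9% of all protein-coding genes. Main-list summits were in the windows of 4, or 14.8% of the 27, against 7.39% of protein-coding genes with a candidate. All 4 belonged to the 10 listed for Argonaute and the silencing complex, all were in both libraries' lists, and none came from the 6 biogenesis genes or the 14 for deadenylation, decay and turnover. Of those 6 genes 5 had a candidate, and of those 14 genes 12. At such sizes counts of 0 lie near the 7.39% background. The list is short, its genes were chosen with earlier results of these data known, and no test was made.

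vig-1, a component of Argonaute complexes, had a signal of 191.3 with the summit 421 bp upstream. alg-5, a germline Argonaute that binds miRNAs, had 170.9 at 823 bp upstream. nhl-2, a TRIM-NHL cofactor of silencing, had 121.3 at 862 bp upstream, and hrpk-1, an RNA-binding protein with KH domains, had 114.1 at 331 bp upstream. Of the 4, hrpk-1 alone was the nearest start of any class. The histone gene his-68 lay 153 bp from the alg-5 summit, F26F4.14 3 bp from the nhl-2 summit with tag-340 as the nearest protein-coding start at 561 bp, and the piRNA gene 21ur-13751 117 bp from the vig-1 summit. The main miRNA Argonautes alg-1 and alg-2 had candidates with signals of 30.4 and 22.0 only, drsh-1 had 51.6 and dcr-1 27.2. Of 12 genes listed as known or proposed targets of worm miRNAs, 4 had a candidate, against 51.9% of all protein-coding genes, and none of the 4 had a main-list summit, against 7.39% of protein-coding genes with a candidate. At 4 genes a count of 0 lies near that background. lin-14 and lin-41 were among those without a candidate.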

How the data were processed

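Peak lists of 2 ChIP-seq libraries of B0019.2, 1 group of 2 biological replicates per the labels, were used. Their assembly is ce11 per the labels and readmes. Which aligner and caller made them is not given in the sources used here, and a control library is not analysed here. Ranked and thresholded lists were deposited per library and for the pair. The signal of a peak is the authors' deposited value, with no stated scale. The −log10 global IDR is deposited in the ranked lists, and the deposited thresholded peaks all had at least 2 there, an IDR of at most 0.01. The main list was paired with the ranked list that met this. The ranked lists of both libraries also have 16 columns of values per input, which could not be mapped to samples from the labels and were left out. Without counts, depth and its precision are unknown.

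Genes came from Ensembl release 115 on WBcel235, whose coordinates are those of ce11, and 45 miRNA genes carry the RefSeq symbol where the names differed. A gene was counted where a summit lay in its window of 1000 bp upstream to 200 bp downstream. Sequences came from RefSeq on WBcel235 (mature strands for 260 of 261 genes; those of 1 cluster are not reported here). The window and distance code was tested on simulated data, with 200 planted summits and 0 errors. Intervals are exact 95% binomial (Clopper-Pearson) intervals. Named genes were those with a summit in any thresholded list (except 1), the 6 strongest of the remaining, members of the listed families (up to 3 by signal), pathway genes with a main-list summit and the genes nearest to these summits; other pathway genes were named after their values were seen. The members and lists were chosen with earlier results of these data known. Alternatives were other lists, windows, gene starts and overlap rules, and each library alone. Python 3.11.15, numpy 2.4.6, scipy 1.17.1 and matplotlib 3.10.9 were used.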

Additional observations from a re-analysis of the deposited data

How the results depend on the processing

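Of 55 recomputed counts and shares, 43 stayed within 1.5 times the value reported and 12 moved. Some of the 43 could not move. Adding ranked candidates with an IDR of at most 0.01 left the miRNA values unchanged, because no such candidate outside the main list lay in a miRNA window. With only the 50% of main-list peaks with the highest signal, 3 miRNA genes at 3 summits were left, 1 of them with no protein-coding start nearer, or 2.00% of genes with a candidate. With a window of 500 bp upstream to 100 bp downstream, 6 miRNA genes were left, 5 of them with no protein-coding start nearer, and 2 of the 4 pathway genes. With a window of 2000 bp upstream to 500 bp downstream, distinct summits numbered 9 and miRNA genes 14, the added ones being mir-71, mir-72 and mir-2216, and mir-72 had a signal of 211.1 at 1610 bp upstream. Leaving out miRNA genes inside a same-strand host left 3 summits. Assigning each summit to its nearest start only left 1 miRNA gene, mir-4812, at 1 summit, and 1 pathway gene, hrpk-1. Using the list of 1 library at a time gave 8 to 11 miRNA genes, 6 to 9 of them with no protein-coding start nearer, at 5 summits each. The list of replicate 2 kept only mir-4932, mir-354 and mir-51 of the main-list genes, and its other genes were different ones. Of its genes with no protein-coding start nearer, mir-51 alone was a main-list gene. Of 25 recomputed summit distances, the largest shift was 58 bp and none changed sign. These include the same peaks in the second list of both libraries, at unchanged distances, and count the mir-35 to mir-41 summit once for each of its 7 genes. For mir-35 to mir-41 and mir-4812 the list of replicate 2 held no summit, so it gave no distance. Starting from RefSeq hairpins, chosen after seeing the data, gave 11 genes at 5 summits and 151 genes with a candidate. Without counts, depth cannot be weighed, and genes without a candidate cannot be called unbound.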
